A study of Mus musculus with 10 samples.

Results

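The Wnt ligands, their Frizzled receptors, the secreted antagonists of both and 3 genes that report on the pathway were followed in the cortex of Gatad2b mutant embryos. The members were all gene symbols of the deposited tables that name a Wnt ligand (19 genes), a Frizzled receptor (Fzd, 10 genes), a secreted Frizzled-related protein (Sfrp, 4 genes) or a Dickkopf protein (Dkk, 4 genes), together with Lef1, Axin2 and Nkd1. This gave 40 of 31053 genes. The rule reads gene names and no measured value. It was set with earlier results of these data known.

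Single-cell RNA was read by 10X Genomics 3′ chemistry in the whole cortex of 10 mouse embryos at E16.5, with 1 library per embryo. The groups were 3 WT embryos, 4 Gatad2b stop/+ embryos (Het) and 3 Gatad2b stop/stop embryos (KO). Gatad2b encodes a subunit of the NuRD chromatin remodelling complex. The stop allele carries a trapping cassette in an intron of the gene in every cell of the body from the germline on, so a difference within a class of cells can arise in those cells or elsewhere in the embryo. All embryos had the C57BL/6N-A tm1Brd background, no agent was named in the labels, and KO pups die around birth. Each cortex was dissociated whole, so the classes were separated only in the analysis.

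Wnt proteins are secreted, lipid-modified ligands that bind Frizzled receptors on the receiving cell. In the canonical branch the bound receptor spares beta-catenin from destruction, and beta-catenin then works with the TCF and LEF factors to switch on target genes. Sfrp proteins bind Wnt ligands outside the cell and Dickkopf proteins mostly act on the Lrp co-receptors. In the developing cortex the pathway is known for patterning by the cortical hem, for the balance between progenitors and neurons and for the growth of blood vessels into the brain.

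Of 80071 deposited cell barcodes, 65779 had at least 1000 UMIs (unique molecular identifiers, each standing for 1 captured RNA molecule) and at most 10% mitochondrial UMIs, and these were used. The embryos held between 82872641 and 123737385 UMIs. Gatad2b itself was read at 131 to 139 TMM-scaled CPM (UMI counts scaled to a common library total) in WT embryos, at 89.8 to 95.7 in Het embryos and at 50.9 to 57.3 in KO embryos, so every library followed its label. Any 2 libraries shared 4 to 19 cell barcodes. The library names carry 1 of 2 prefixes, called A and B here, whose meaning is not stated. Libraries of prefix A held 9271 to 10386 barcodes and those of prefix B 5996 to 7510. The median share of mitochondrial UMIs was 3.60% to 3.97% with prefix A and 4.31% to 4.66% with prefix B. Median UMIs per cell overlapped. Prefix A was carried by the 3 WT libraries and Het replicate 4, and prefix B by Het replicates 1 to 3 and the 3 KO libraries. Prefix and genotype can therefore not be told apart in KO vs WT, and KO was also compared with Het within the 6 libraries of prefix B. In Het vs WT, Het replicate 4 alone shares the prefix of the WT libraries, so the prefix enters most of that comparison too. Clusters were named from marker genes that include no member, with the ending -like. In 2 clusters the markers of another type scored higher than those of the name given, the radial glia-like one (3.56, against 3.88 for glial progenitors) and cluster 7, named layer V-VI-like (0.572, against 0.595 for intermediate progenitors). The next smallest gaps among named clusters were in cluster 1, named layer II-IV-like (1.31, against 0.784 for intermediate progenitors), and the mural-like cluster (4.79, against 4.05 for meningeal fibroblasts). Cluster 7 holds 2944 of the 9764 layer V-VI-like cells. The mural-like cluster, with 326 cells, had among its leading genes Cldn5, the first gene of the endothelial-like cluster. Clustering without integration gave 194 mural-like cells. At resolution 0.8 a cluster of 133 cells was led by Cldn5 and by Rgs5, the first gene of the mural-like cluster. Its median was 56632 UMIs per cell, against 11187 in a cluster of 193 cells led by Rgs5 and Vtn. Such cells weigh more in a sum of UMIs than their number shows. Doublets were kept, and whether the 133 cells are doublets was not tested. The mural-like class may therefore hold endothelial cells, and its levels are not those of mural cells alone. Endothelial-like cells of the main clustering were too few to test, with 11 to 341 per embryo and 341 of 597 in Het replicate 3. Clustering without integration gave 362 endothelial-like cells, at most 18.8% of them in 1 embryo, and these were not tested either. Clusters 5, 6, 12, 15 and 19 stayed unnamed.

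In WT embryos the ligands differed in the classes where they were highest, and some shared a class. Levels are given in plain CPM, the CPM of the gene among all UMIs of the class without TMM scaling, as the mean and SD of 3 embryos, and are compared only within a gene because 3′ counting does not allow levels to be compared between genes. Wnt7b, a canonical ligand known from cortical neurons, reached 203 ± 35.6 (SD, n = 3) in Cajal-Retzius-like cells, 66.8 ± 6.96 in layer V-VI-like and 58.3 ± 1.91 in layer II-IV-like cells. It stood at 5.66 ± 1.39 in interneuron-like cells, near the 4.89 ± 4.22 of erythroid-like cells, which make no Wnt and give the level of free RNA. Its close relative Wnt7a showed the opposite order between these neurons, with 29.7 ± 3.15 in interneuron-like and 19.6 ± 2.47 in striatal inhibitory-like cells against 2.44 ± 0.23 in layer II-IV-like cells. Radial glia-like cells held 18.99 ± 2.91 of Wnt7a and 37.5 ± 4.80 of Wnt7b.

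Wnt4 was highest in Cajal-Retzius-like cells at 71.5 ± 10.2. Over all 10 embryos these cells held 44.6% of its UMIs, layer V-VI-like cells 19.4% and interneuron-like cells 11.7%. Wnt5a, the main ligand of the branch that does not use beta-catenin, reached 110 ± 15.6 in unnamed cluster 19, 33.4 ± 16.0 in mural-like, 31.1 ± 6.39 in interneuron-like and 26.6 ± 10.5 in intermediate progenitor-like cells. These last 3 classes did not differ beyond their spread. The interneuron-like mean joins clusters that differ, and cluster 9 alone was near the level of cluster 19, as given below. Wnt3 was highest in striatal inhibitory-like cells at 8.55 ± 1.05. Wnt5b stood between 0.30 and 4.00 in all named classes other than erythroid-like cells, where none was read in WT.

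Among the receptors, Fzd3, which serves planar polarity and axon guidance, was read in every class and was highest in intermediate progenitor-like cells at 283 ± 19.1. Fzd2 was highest in progenitor classes, with 134 ± 12.5 in radial glia-like cells, 134 ± 5.08 in intermediate progenitor-like cells and 87.8 ± 5.37 in unnamed cluster 6, led by the cell division genes Top2a and Mki67. It was also read in neurons, at 58.9 ± 4.15 in striatal inhibitory-like, 24.4 ± 3.31 in layer II-IV-like and 10.3 ± 1.03 in layer V-VI-like cells. Fzd8 was highest in radial glia-like cells at 35.1 ± 2.65, and so was Fzd5 at 6.56 ± 1.73. Fzd7 was at 13.7 ± 0.795 there and at 10.997 ± 4.03 in cluster 19, which overlapped. Over all 10 embryos Fzd10 had 71.6% of its UMIs in Cajal-Retzius-like cells. Fzd6 reached 87.9 ± 9.75 and Fzd4 37.9 ± 11.6 in mural-like cells. In the endothelial-like cells of a clustering made without integration Fzd6 and Fzd4 were at 116 and 46.1. Since the mural-like class may hold endothelial cells, the level of mural cells alone is not shown. The mural-like and endothelial-like values come from different clusterings and may share cells, so their order is not one of separate cells.

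The antagonists were similarly divided. Sfrp1 stood at 417 ± 31.6 in radial glia-like and 164 ± 18.9 in intermediate progenitor-like cells and at most 75.4 in each other class. Sfrp2 followed the same order at 45.4 ± 17.4 and 25.6 ± 5.64, with mural-like cells between them at 29.8 ± 8.36, and these 3 overlapped within their spread. Over all 10 embryos Sfrp5 had 77.7% of its UMIs in radial glia-like cells. Dkk3, a divergent Dickkopf family member, was highest in Cajal-Retzius-like cells at 88.8 ± 9.20, then in radial glia-like cells at 27.4 ± 2.36 and cluster 19 at 24.4 ± 8.67, which overlapped, in mural-like cells at 14.8 ± 2.42 and in layer II-IV-like cells at 11.3 ± 1.25. Dkk2 was highest in mural-like cells at 27.0 ± 7.32 and Dkk1 in cluster 19 at 2.65 ± 1.92.

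The 3 readout genes were highest in mural-like and endothelial-like cells, and the mural-like class may itself hold endothelial cells. The values of these 2 classes come from different clusterings and may share cells, so they are not compared with each other. Lef1, a DNA-binding partner of beta-catenin, stood at 122 ± 24.3 in mural-like cells and at 168 ± 30.7 in the endothelial-like cells of the clustering without integration. Nkd1, a feedback inhibitor in the cytoplasm, was at 166 ± 40.9 and 217 ± 34.2 there, and Axin2, a feedback inhibitor that is part of the destruction complex of beta-catenin, at 117 ± 8.23 and 71.6. Among the other clusters, cluster 19 held the highest levels, with 84.3 ± 11.2 for Lef1, 54.2 ± 7.13 for Nkd1 and 54.1 ± 1.95 for Axin2. Layer II-IV-like cells held 2.29 ± 0.17 of Lef1.

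**Figure D1:**
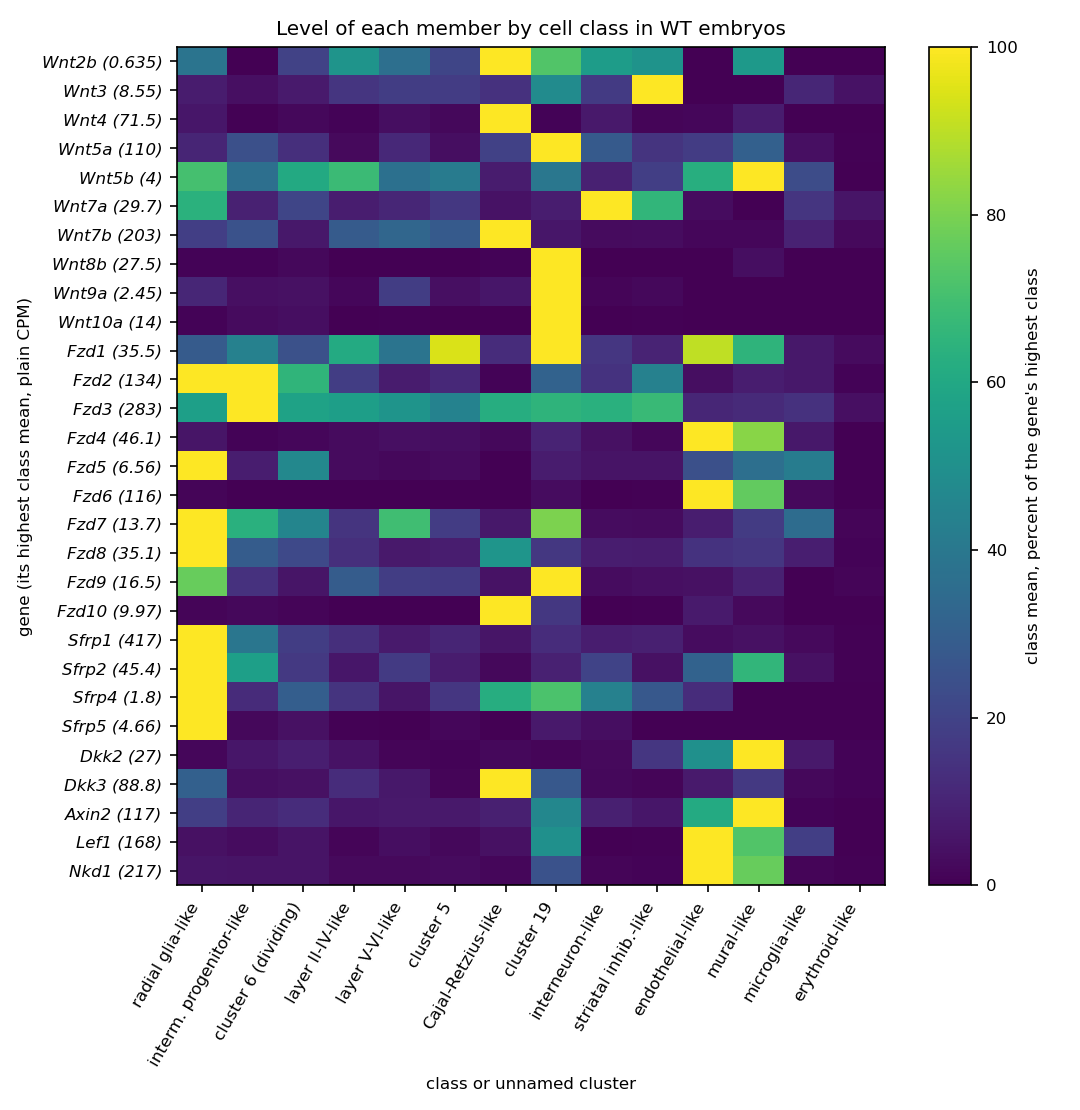
Mean level of each member with at least 200 UMIs in all, in WT embryos (n = 3), by cell class or unnamed cluster. Colour gives the class mean as a percent of the gene's highest class, and the number beside each gene is that highest mean in plain CPM. Endothelial-like values are from the clustering without integration, and their cells may be shared with the mural-like column. Among the columns shown, Wnt4, Wnt7b and Dkk3 peak in Cajal-Retzius-like cells and Wnt5a, Wnt8b and Wnt10a in cluster 19. Lef1, Nkd1 and Axin2 peak in endothelial-like or mural-like cells.

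Not every member could be tested. Wnt1, Wnt3a, Wnt8a, Wnt9b, Wnt10b, Wnt11, Wnt16 and Dkk4 fell below the filter on low counts over all cells, with 0 to 12 UMIs per embryo. A gene with no UMI in an embryo could still hold up to 0.0242 to 0.0362 CPM there, the level of 3 UMIs, and this limit covers counting error only. The other 32 members were tested with all genes by edgeR's quasi-likelihood test on the UMIs of each embryo, with Benjamini-Hochberg adjustment of the p-values over all genes. Called means that the adjusted p was under 0.05 and that the log2 fold change exceeded 0.25 in either direction. In such sums over all cells, fewer cells of a type and less RNA per cell cannot be told apart.

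Over all cells of KO vs WT, 12 of the 32 members were called, 7 higher and 5 lower, beside 24.5% of all 17647 genes tested. Wnt7b, the receptors Fzd2 and Fzd8, the antagonists Sfrp1 and Sfrp4 and the readouts Lef1 and Nkd1 rose. The antagonists Dkk3 and Dkk2, the receptor Fzd1 and the ligands Wnt8b and Wnt2b fell. In Het vs WT 2 of 32 were called, Wnt7b higher and Dkk3 lower, beside 2.98% of all genes. In KO vs Het within prefix B it was 9 of 31, beside 6.14%, with Fzd2, Nkd1, Sfrp1, Sfrp4 and Wnt7b higher and Dkk3, Fzd1, Wnt10a and Wnt8b lower. The median log2 fold change of the members was 0.09 in Het vs WT, 0.01 in KO vs WT and -0.10 in KO vs Het, and that of all genes lay within 0.01 of 0 in each comparison. WT embryos are shared by the first pair of comparisons and KO embryos by KO vs WT and KO vs Het, so they are not independent. KO and WT embryos did not overlap for 16 of 32 members, beside 52.7% of all genes, and Het and WT embryos for 7 of 32, beside 19.8%. With the prefix as a covariate, a fit in which Het replicate 4 alone ties the prefixes together, 6 members were called in KO vs WT, namely Dkk3, Fzd1, Fzd2, Nkd1, Sfrp1 and Wnt7b. Another setting took the mean of plain CPM over the 10 named classes tested, with equal weight for each. It left out the unnamed clusters and the endothelial-like cells. The numbers of cells and of UMIs per class do not enter it, but the class with the highest level weighs most. For Wnt7b that class is Cajal-Retzius-like cells, where it was not called, while it was called higher in layer II-IV-like and layer V-VI-like cells. This setting moved several log2 fold changes of KO vs WT toward 0. Wnt7b went from 0.75 to 0.13, Fzd2 from 0.57 to 0.11, Fzd1 from -0.37 to -0.10, Sfrp1 from 0.38 to 0.19, Nkd1 from 0.47 to 0.28, Wnt2b from -0.63 to -0.32 and Dkk3 from -1.42 to -0.73.

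**Figure D2:**
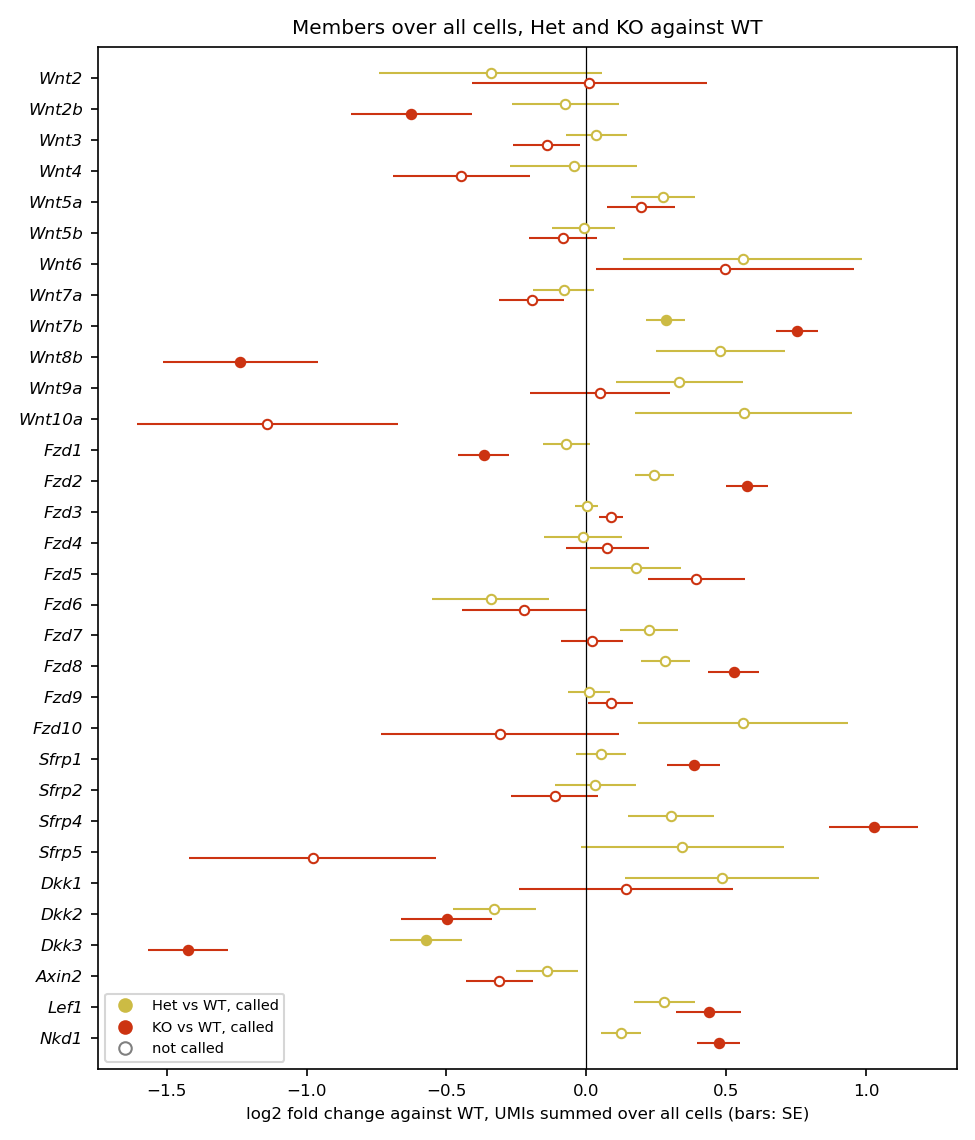
Log2 fold change of the 32 tested members over all cells, Het vs WT (yellow) and KO vs WT (red), with bars of 1 SE from edgeR. Filled points passed both thresholds. Dkk3 lies lowest at -1.42 and Sfrp4 highest at 1.03 in KO vs WT.

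Wnt7b (ENSMUSG00000022382, chr15:85535437-85582473, GRCm38, minus strand) was the ligand that rose. Its level was 51.5, 46.8 and 46.9 CPM in the WT embryos, 65.9, 58.8, 54.4 and 56.4 in the Het embryos and 87.5, 81.5 and 75.4 in the KO embryos, with TMM scaling here and in the values below. The 3 groups did not overlap, with Het between WT and KO. The log2 fold change was 0.75 (SE 0.075, adjusted p = 4.8e-05) in KO vs WT, 0.28 (SE 0.070, adjusted p = 0.046) in Het vs WT and 0.45 (SE 0.074, adjusted p = 0.0068) in KO vs Het within prefix B. The Het call held in 5 of 19 alternatives and the KO call in 19 of 19.

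Wnt8b, a ligand of the dorsal midline and hem, was sparse. WT embryos held 0.607, 0.543 and 0.721 CPM, Het embryos 1.08, 0.863, 0.538 and 0.985, and KO embryos 0.207, 0.332 and 0.260. KO lay below every other embryo, while Het lay on both sides of WT. The log2 fold change was -1.24 (SE 0.28, adjusted p = 0.0055) in KO vs WT and -1.65 (SE 0.29, adjusted p = 0.0094) in KO vs Het. With the prefix as a covariate the KO vs WT value was -0.98 (adjusted p = 0.20).

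Wnt10a stood at 0.299, 0.351 and 0.411 CPM in WT, 0.444, 0.732, 0.631 and 0.296 in Het and 0.272, 0.0492 and 0.140 in KO embryos. It was called in KO vs Het (-1.90, SE 0.41, adjusted p = 0.022) and not in KO vs WT (-1.14, SE 0.47, adjusted p = 0.076). Without Het replicate 2, Het replicate 3 or KO replicate 3 it was not called in KO vs Het. In KO vs WT it was called by DESeq2 (adjusted p = 0.049), without doublets (0.035), with at most 5% mitochondrial UMIs (0.017), without Het replicate 4 (0.047) and without KO replicate 1 (0.021). Wnt2b, with 13 to 35 UMIs per embryo, had -0.63 (SE 0.22, adjusted p = 0.041) in KO vs WT, a call that held in 5 of 19 alternatives. The other ligands tested, Wnt2, Wnt3, Wnt4, Wnt5a, Wnt5b, Wnt6, Wnt7a and Wnt9a, were not called over all cells, with log2 fold changes from -0.45 for Wnt4 to 0.50 for Wnt6 in KO vs WT.

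Fzd2 (chr11:102604396-102608058, plus strand) rose. It stood at 31.5, 29.1 and 30.8 CPM in WT, 36.4, 31.9, 34.9 and 40.9 in Het and 43.5, 47.4 and 45.3 in KO embryos. No group overlapped another. The log2 fold change was 0.57 (SE 0.075, adjusted p = 0.00026) in KO vs WT and 0.40 (SE 0.053, adjusted p = 0.0026) in KO vs Het, and in Het vs WT it was 0.24 (SE 0.070, adjusted p = 0.065). Intermediate progenitor-like cells, one of the classes where Fzd2 is highest, made up 2.85% of WT, 4.26% of Het and 5.98% of KO cells, and the part of this shift in the sum was not tested.

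Fzd8 had 5.20, 5.16 and 5.21 CPM in WT, 7.16, 5.89, 5.97 and 6.23 in Het and 7.75, 6.78 and 7.89 in KO embryos. All Het and all KO embryos lay above all WT embryos. Its log2 fold change in KO vs WT was 0.53 (SE 0.092, adjusted p = 0.0015). In Het vs WT Fzd8 was not called, but it was called by DESeq2, with the replicate block and without Het replicate 4. Fzd1 went the other way, with 17.5, 15.2 and 16.4 CPM in WT, 17.8, 15.1, 16.0 and 13.3 in Het and 12.7, 12.8 and 12.6 in KO embryos. The KO embryos lay closely together below every WT and Het embryo. Fzd1 fell by 0.37 on the log2 scale in KO vs WT (SE 0.090, adjusted p = 0.0090) and by 0.37 in KO vs Het (SE 0.062, adjusted p = 0.0079). The KO vs Het value was 0.017 with equal weight for each class, and with all 10 embryos in one fit it was not called (adjusted p = 0.057). Fzd3, at 149 to 158 CPM in WT and 158 to 168 in KO embryos, was not called (0.09, SE 0.044, adjusted p = 0.14), and neither were Fzd4, Fzd5, Fzd6, Fzd7, Fzd9 and Fzd10.

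Dkk3 (ENSMUSG00000030772, chr7:112116017-112159057, minus strand) had the largest change of a member in KO vs WT. Its values were 8.85, 8.58 and 10.5 CPM in WT, 6.74, 7.14, 6.17 and 4.96 in Het and 3.73, 2.94 and 3.70 in KO embryos. The groups were fully separate, in the order of the number of intact alleles. The log2 fold change was -1.42 (SE 0.14, adjusted p = 5.2e-05) in KO vs WT, -0.57 (SE 0.13, adjusted p = 0.038) in Het vs WT and -0.95 (SE 0.11, adjusted p = 0.0014) in KO vs Het. The KO call held in 19 of 19 alternatives and the Het call in 9 of 19.

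Dkk2, an antagonist with 27.4% of its UMIs in layer II-IV-like and 23.0% in mural-like cells, had 1.34, 1.54 and 1.17 CPM in WT and 1.12, 0.873 and 0.870 in KO embryos, a log2 fold change of -0.50 (SE 0.16, adjusted p = 0.032). It was no longer called without KO replicate 2, KO replicate 3, WT replicate 1 or WT replicate 2, without doublets, or with the prefix as a covariate. Of the 4 Sfrp genes 2 rose. Sfrp1 had 60.9, 55.3 and 58.0 CPM in WT, 63.9, 50.005, 58.4 and 68.5 in Het and 74.2, 71.8 and 81.2 in KO embryos (KO vs WT 0.38, SE 0.095, adjusted p = 0.0095). Sfrp4 had 0.353, 0.376 and 0.391 CPM in WT, 0.508, 0.404, 0.518 and 0.416 in Het and 0.732, 0.750 and 0.8002 in KO embryos, from 37 to 80 UMIs each (1.03, SE 0.16, adjusted p = 0.00073). For both genes the KO embryos lay above all others. Radial glia-like cells, where Sfrp1 and Fzd8 are highest, made up 2.05% of WT, 2.18% of Het and 2.98% of KO cells, with overlap of WT and KO. Intermediate progenitor-like cells, next highest for Sfrp1, made up 2.85%, 4.26% and 5.98%. The part of these shares in the sums of Sfrp1 and Fzd8 was not tested. By class, Sfrp1 was called in KO vs WT in striatal inhibitory-like cells alone. In KO vs Het the Sfrp4 call held in 6 of 14 alternatives and was lost without any 1 of the 6 embryos, by DESeq2 and with at most 5% mitochondrial UMIs. The Sfrp1 call was lost without Het replicate 3 or KO replicate 3. Sfrp2 (-0.11, adjusted p = 0.60), Sfrp5 and Dkk1 were not called.

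The readout genes did not move together. Nkd1 rose from 9.53, 9.89 and 8.31 CPM in WT to 13.5, 13.2 and 11.8 in KO embryos, with 9.77 to 10.7 in Het embryos (KO vs WT 0.47, SE 0.076, adjusted p = 0.00090). Lef1 stood at 7.21, 6.32 and 8.34 CPM in WT, 9.17, 8.71, 8.87 and 8.60 in Het and 11.03, 8.10 and 10.4 in KO embryos, where KO replicate 2 lay within the WT range (0.44, SE 0.12, adjusted p = 0.014). The Lef1 call was lost without KO replicate 1, KO replicate 3 or WT replicate 2. Axin2 was at 10.6, 10.6 and 10.9 CPM in WT, 8.58, 8.53, 9.47 and 12.1 in Het and 9.19, 7.73 and 8.86 in KO embryos. Its KO and WT embryos did not overlap, but it was not called (-0.31, SE 0.12, adjusted p = 0.060), and with the prefix as a covariate the value was 0.13 (adjusted p = 0.55). It was called lower by DESeq2 (adjusted p = 0.035), with only the 2 groups in the fit (adjusted p = 0.0076), with the replicate block (adjusted p = 0.0050) and without Het replicate 4 (adjusted p = 0.0051).

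**Figure D3:**
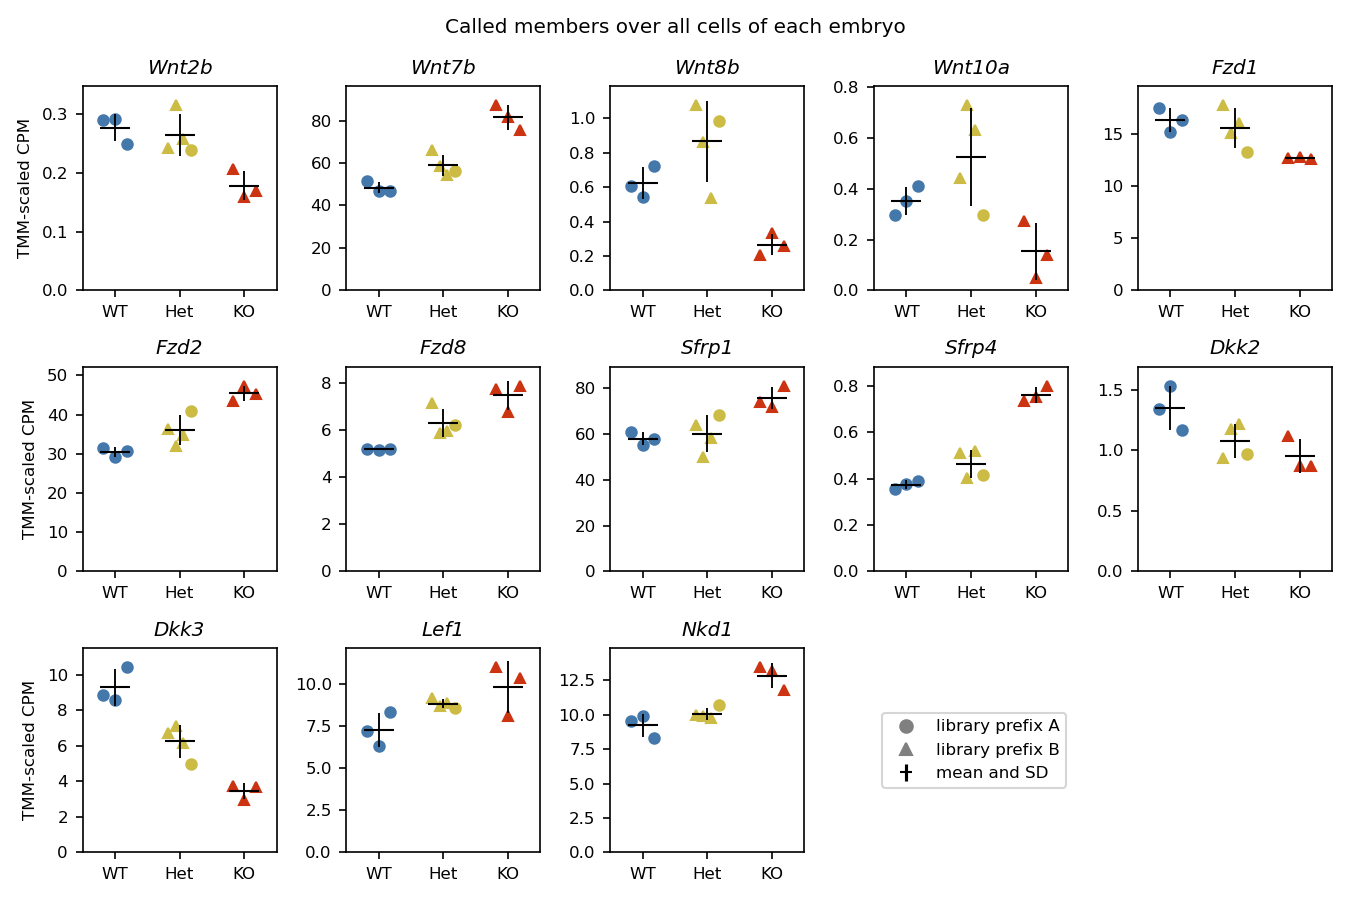
TMM-scaled CPM over all cells of each embryo for the members called in any comparison, by genotype, with the group mean and SD. Circles are libraries of prefix A and triangles those of prefix B. Wnt7b, Fzd2, Dkk3 and Sfrp4 separate all 3 genotypes, and for Wnt8b the KO embryos stand apart from the rest.

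Summing over all cells mixes classes, so the classes that no embryo held with fewer than 20 cells were also tested on their own. Over the 10 named classes tested, 33 of 133 pairs of member and class were called in KO vs WT, 20 higher and 13 lower, beside 14.9% of all pairs of gene and class. In Het vs WT 6 of 133 were called beside 1.48%, and in KO vs Het within prefix B 20 of 125 beside 4.32%. Of these 20, layer II-IV-like cells held 7 (of 21, beside 12.6% of genes) and layer V-VI-like cells 6 (of 20, beside 8.69%). Intermediate progenitor-like cells held 3 (of 16, beside 3.32%) and Cajal-Retzius-like cells 2 (of 10, beside 1.2%). Interneuron-like and striatal inhibitory-like cells held 1 each, and radial glia-like and mural-like cells 0. With the prefix as a covariate, 22 of the 133 pairs were called in KO vs WT. Of the 33, 20 were among them, and Sfrp1 in layer II-IV-like and in radial glia-like cells was newly called. The 13 lost were Dkk2, Fzd7, Sfrp4 and Wnt3 in layer II-IV-like, Lef1 and Wnt5b in layer V-VI-like, Dkk3 and Wnt5a in radial glia-like, Dkk2, Sfrp2 and Wnt5a in interneuron-like and Wnt3 and Wnt5a in striatal inhibitory-like cells. When each embryo was left out in turn, these KO vs WT calls were kept in fewer than 8 of 10 fits: Dkk3 in radial glia-like (6), Sfrp2 in interneuron-like (5), Wnt3 in striatal inhibitory-like (6), Wnt5b in layer V-VI-like (7), and Wnt5a (6) and Sfrp4 (7) in layer II-IV-like cells.

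Layer II-IV-like cells held the most calls, 12 of 22 members in KO vs WT beside 30.3% of genes. KO and WT embryos did not overlap there for 17 of 22 members, beside 55.4%. In Het vs WT 4 of 22 were called beside 6.36%. This class is made of clusters 0, 1 and 13. Cluster 0 held 51.7% of it in WT and 41.6% in KO, cluster 1 held 36.0% and 51.8%, and cluster 13 held 12.3% and 6.59%, so most WT cells came from cluster 0 and most KO cells from cluster 1. Values in each cluster are therefore given as well.

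Wnt7b in layer II-IV-like cells was at 55.8, 57.1 and 59.1 CPM in WT, 79.6, 79.4, 73.4 and 76.3 in Het and 120, 121 and 116 in KO embryos. The spread within each genotype was small against the steps between them. The log2 fold change was 1.06 (SE 0.046, adjusted p = 1.2e-09) in KO vs WT, 0.43 (SE 0.043, adjusted p = 0.00013) in Het vs WT and 0.62 (SE 0.045, adjusted p = 3.4e-07) in KO vs Het. Each of these clusters showed it. From WT to KO the mean went from 41.1 to 107 plain CPM in cluster 0, from 75.1 to 105 in cluster 1 and from 90.1 to 230 in cluster 13, with no overlap of WT and KO embryos.

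Dkk3 in the same cells was at 10.8, 10.2 and 12.4 CPM in WT, 4.74, 5.04, 5.09 and 2.75 in Het and 1.90, 1.70 and 1.82 in KO embryos. Every Het embryo lay below every WT embryo and above every KO embryo. The log2 fold change was -2.62 (SE 0.19, adjusted p = 1.4e-07) in KO vs WT and -1.35 (SE 0.15, adjusted p = 0.00022) in Het vs WT. By cluster the mean fell from 15.9 to 1.79 plain CPM in cluster 0, from 3.80 to 1.65 in cluster 1 and from 8.19 to 2.29 in cluster 13 between WT and KO, and the range of the embryos did not overlap in any of them.

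Of the readouts, Lef1 and Nkd1 rose in these neurons and Axin2 was not called. Lef1 went from 2.37, 2.09 and 2.31 CPM in WT to 3.94, 3.67, 3.95 and 4.25 in Het and 7.51, 4.97 and 5.78 in KO embryos (KO vs WT 1.44, SE 0.15, adjusted p = 3.4e-06, and Het vs WT 0.81, SE 0.14, adjusted p = 0.0042). Nkd1 was at 5.27, 6.83 and 3.73 CPM in WT, 6.30, 6.41, 5.39 and 7.49 in Het and 13.8, 13.97 and 13.8 in KO embryos (1.38, SE 0.15, adjusted p = 8.5e-06). KO embryos stood alone for Nkd1, while for Lef1 the 3 genotypes were separate. Axin2 had -0.12 (SE 0.13, adjusted p = 0.49). Within clusters 0, 1 and 13, Lef1 had WT means of 2.11, 3.87 and 0.361 plain CPM and KO means of 4.86, 8.20 and 2.09. Nkd1 had WT means of 5.46, 5.23 and 5.34 and KO means of 12.4, 16.1 and 9.50. For both genes the WT and KO embryos did not overlap in any of these clusters.

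Among the other members in layer II-IV-like cells, Fzd2 rose by 0.81 (SE 0.11, adjusted p = 4.1e-05) in KO vs WT and by 0.35 (adjusted p = 0.042) in Het vs WT on the log2 scale. The Het call held in 10 of 21 alternatives and in 2 of 10 fits that left out an embryo. Its level there depends on the cluster, with WT means of 13.5, 59.9 and 3.10 plain CPM in clusters 0, 1 and 13 and KO means of 25.7, 67.7 and 5.92, and in cluster 1 the WT and KO embryos overlapped. Sfrp2 fell from 2.28 to 3.03 CPM in WT to 0.634 to 1.03 in KO embryos (-1.80, SE 0.20, adjusted p = 9.2e-06). Fzd7 (0.57), Wnt5a (0.55) and Sfrp4 (1.00) were called higher and Dkk2 (-1.63), Wnt7a (-0.78) and Wnt3 (-0.66) lower, with Dkk2, Wnt3 and Sfrp4 at group means of 1.29 CPM or less in WT and KO. By cluster, Sfrp2 had WT and KO means of 1.32 and 0.461 plain CPM in cluster 0, 6.55 and 1.28 in cluster 1 and 1.495 and 0.0959 in cluster 13, with no overlap of the embryos. Fzd7 differed between clusters, with means of 1.79 in WT and 3.04 in KO in cluster 0, 3.19 and 2.89 in cluster 1 and 1.08 and 2.97 in cluster 13. Wnt7a had means of 2.82 and 1.73 in cluster 0, 1.24 and 0.594 in cluster 1 and 2.885 and 2.93 in cluster 13, where the embryos overlapped. Erythroid-like cells, which give the level of free RNA, held 12 UMIs of Wnt7a among 15667950, and the means of cluster 1 are near that level. For Wnt5a the WT and KO embryos overlapped in each cluster. Dkk2, Wnt3 and Sfrp4 kept their direction in the mean of each cluster, with overlap of WT and KO in at least 1 cluster.

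Layer V-VI-like cells had 7 of 20 members called in KO vs WT beside 22.5% of genes, and 1 of 20 in Het vs WT, Dkk3, beside 0.881%. The Het call of Dkk3 (-0.64, adjusted p = 0.034) held in 11 of 21 alternatives and in 4 of 10 fits that left out an embryo, and was not made with the prefix as a covariate (adjusted p = 0.29). The shares of their 3 clusters differed little between genotypes, from 45.0% to 45.6% for the largest. Wnt7b (0.79, SE 0.11), Fzd2 (0.65, SE 0.10), Nkd1 (0.73, SE 0.11) and Lef1 (0.72, SE 0.17) rose. Dkk3 fell, with 5.09, 5.81 and 5.74 CPM in WT, 3.63, 3.22, 4.02 and 3.41 in Het and 1.40, 1.19 and 1.55 in KO embryos (KO vs WT -1.99, SE 0.16, adjusted p = 1.6e-06). Fzd1 had 12.9, 12.6 and 14.9 CPM in WT, 11.2, 13.0, 15.0 and 7.84 in Het and 5.37, 5.83 and 6.36 in KO embryos (-1.20, SE 0.19, adjusted p = 0.00044). Het replicates 1 to 3 were near the WT level of Fzd1 and Het replicate 4 lay between WT and KO. Wnt5b, at 1.24 to 1.68 CPM in WT and 0.732 to 1.01 in KO embryos, also fell (-0.76, SE 0.23, adjusted p = 0.025). Since cluster 7 scored slightly higher for intermediate progenitors, the clusters were also read apart. For Wnt7b, Fzd2, Nkd1, Lef1 and Dkk3 the WT and KO embryos did not overlap in any of clusters 3, 7 and 10. Lef1 was highest in cluster 7, with WT and KO means of 16.7 and 24.2 plain CPM there, 0.783 and 2.19 in cluster 3 and 1.08 and 3.31 in cluster 10. Fzd1 had means of 30.5 and 13.5 in cluster 7, 7.29 and 1.57 in cluster 10 and 3.46 and 2.198 in cluster 3, where the embryos overlapped. Wnt5b overlapped in cluster 7, at 0.901 and 0.859, and was separate in the others.

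In radial glia-like cells 3 of 19 were called in KO vs WT, beside 19.8%, and 1 of 19 in Het vs WT, beside 1.82%. Fzd8 was at 36.1, 31.7 and 36.2 CPM in WT, 60.8, 40.8, 48.2 and 58.1 in Het and 58.0, 62.2 and 58.4 in KO embryos. Both mutant groups lay above WT and overlapped each other (KO vs WT 0.78, SE 0.13, adjusted p = 0.00052, and Het vs WT 0.61, SE 0.13, adjusted p = 0.026). The Het call was lost with the prefix as a covariate (adjusted p = 0.071), at clustering resolution 0.8, and without Het replicate 1 or any single WT embryo. Wnt5a fell in radial glia-like cells in KO vs WT (-1.21, SE 0.31, adjusted p = 0.010), as did Dkk3 (-0.48, SE 0.14, adjusted p = 0.022). In KO vs Het within prefix B 0 of 18 members were called in this class, beside 2.75% of genes. Glial progenitor markers, for which this cluster also scored, summed to 26.7 to 32.5 plain CPM over all WT cells and 12.9 to 17.7 over all KO cells. All 6 listed markers were in the tables. At resolution 0.8 a glial progenitor-like cluster of 187 cells, led by Olig1, was separate, and other cells of the class changed too. In that setting Fzd8, Dkk3 and Wnt5a were still called in radial glia-like cells in KO vs WT. The part of glial progenitors in these results was not tested.

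In intermediate progenitor-like cells, the dividing precursors of excitatory neurons, 3 of 15 were called in KO vs WT, beside 15% of genes. Wnt5a was at 16.47, 37.1 and 25.0 CPM in WT, 22.7, 32.0, 23.9 and 23.7 in Het and 11.1, 7.04 and 10.2 in KO embryos (-1.45, SE 0.24, adjusted p = 0.00048). KO lay below every WT and Het embryo. Sfrp2 fell from 29.5, 18.97 and 27.2 CPM in WT over 16.6, 13.4, 15.3 and 17.1 in Het to 7.28, 5.17 and 8.08 in KO embryos (-1.84, SE 0.19, adjusted p = 5.2e-06). Fzd9, a receptor read in excitatory neurons and radial glia-like cells, rose from 2.01 to 2.897 CPM in WT to 5.17 to 7.78 in KO embryos (1.60, SE 0.30, adjusted p = 0.0016). In unnamed cluster 6, 3 of 18 were called, beside 10.7%, and all 3 were lower. They were Lef1 (-1.52, SE 0.30, adjusted p = 0.0063), Fzd7 (-0.96, SE 0.21, adjusted p = 0.011) and Axin2 (-0.61, SE 0.17, adjusted p = 0.034). In KO vs Het within prefix B 0 of 17 members were called in cluster 6, and the alternatives were not run on unnamed clusters. The markers of ganglionic eminence progenitors scored highest in cluster 6 (2.905), though it was not given that name. The change of Lef1 in KO vs WT had opposite signs in cluster 6 and in the excitatory neuron classes, a difference that was not tested.

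In interneuron-like cells 3 of 17 members were called in KO vs WT, all higher, beside 8.35% of genes. Wnt5a was at 28.3, 26.4 and 37.6 CPM in WT, 49.1, 45.4, 46.2 and 40.3 in Het and 74.3, 71.0 and 73.8 in KO embryos (1.25, SE 0.12, adjusted p = 0.00012). The 3 genotypes were separate. Sfrp2 (0.88, SE 0.23, adjusted p = 0.035) and Dkk2 (2.18, SE 0.40, adjusted p = 0.0080) rose too, Dkk2 from 0.428 to 1.05 CPM in WT to 2.23 to 4.60 in KO embryos. In KO vs Het within prefix B only Wnt5a was called in interneuron-like cells, 1 of 16 members, beside 0.882% of genes. This class joins clusters 2, 9 and 14, which differed. Wnt5a had WT and KO means of 7.93 and 47.4 plain CPM in cluster 2, 115 and 168 in cluster 9 and 11.4 and 36.6 in cluster 14, with no overlap in any of them. Sfrp2 was separate in cluster 2 (10.1 and 21.8) and cluster 9 (12.1 and 20.4), and overlapped in cluster 14 with the lower mean in KO (5.40 and 4.27). Dkk2 was separate in cluster 2 alone (0.981 and 5.63), and overlapped in cluster 9 (0.304 and 0.364) and cluster 14 (0.446 and 1.28).

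In striatal inhibitory-like cells 3 of 13 were called, all higher, beside 13.9%. Sfrp1 was at 40.7, 32.5 and 34.5 CPM in WT, 47.3, 40.2, 46.3 and 52.5 in Het and 66.0, 70.4 and 75.2 in KO embryos (0.98, SE 0.10, adjusted p = 1.0e-05). Every KO embryo lay above every Het embryo. Wnt5a (0.89, SE 0.18, adjusted p = 0.0027) and Wnt3 (0.65, SE 0.20, adjusted p = 0.035) also rose. In KO vs Het within prefix B only Sfrp1 was called in striatal inhibitory-like cells, 1 of 12 members, beside 0.439% of genes. Of the clusters 4 and 11 joined here, WT and KO embryos were separate in both for Sfrp1, in cluster 4 alone for Wnt5a and in cluster 11 alone for Wnt3. With the prefix as a covariate neither Wnt5a nor Wnt3 was called in KO vs WT in this class (adjusted p = 0.59 and 0.34). Wnt5a in interneuron-like cells then had an adjusted p of 0.055.

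Cajal-Retzius-like cells, the early-born neurons at the cortical surface, had 2 of 12 members called in KO vs WT beside 5.49% of genes. Lef1 was at 3.05, 10.8 and 9.27 CPM in WT, 18.2, 14.8, 24.6 and 26.9 in Het and 47.0, 37.4 and 36.3 in KO embryos, with no overlap between the genotypes (2.35, SE 0.28, adjusted p = 2.8e-05). Dkk3 was at 86.3, 81.1 and 98.5 CPM in WT and 55.3, 46.7 and 41.0 in KO embryos (-0.90, SE 0.13, adjusted p = 0.00026). The ligands typical of these cells gave no call. Wnt7b had -0.16 (SE 0.13, adjusted p = 0.52), and Wnt4 was at 62.5 to 82.1 CPM in WT and 57.9 to 63.6 in KO embryos.

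Mural-like cells, where the readouts are high, had 0 of 13 members called in KO vs WT by edgeR and 0 by DESeq2, beside 0.286% of genes. At an unadjusted p under 0.05, Axin2 (-0.42, adjusted p = 0.34), Sfrp2 (0.56, adjusted p = 0.34) and Fzd3 (-1.04, adjusted p = 0.16) differed by edgeR. The class held 20 to 45 cells per embryo. Erythroid-like and microglia-like cells had 1 member each that could be tested, and neither was called. In unnamed cluster 5, 1 of 18 was called, Fzd1 (-0.49, SE 0.14, adjusted p = 0.034), beside 9.18%.

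**Figure D4:**
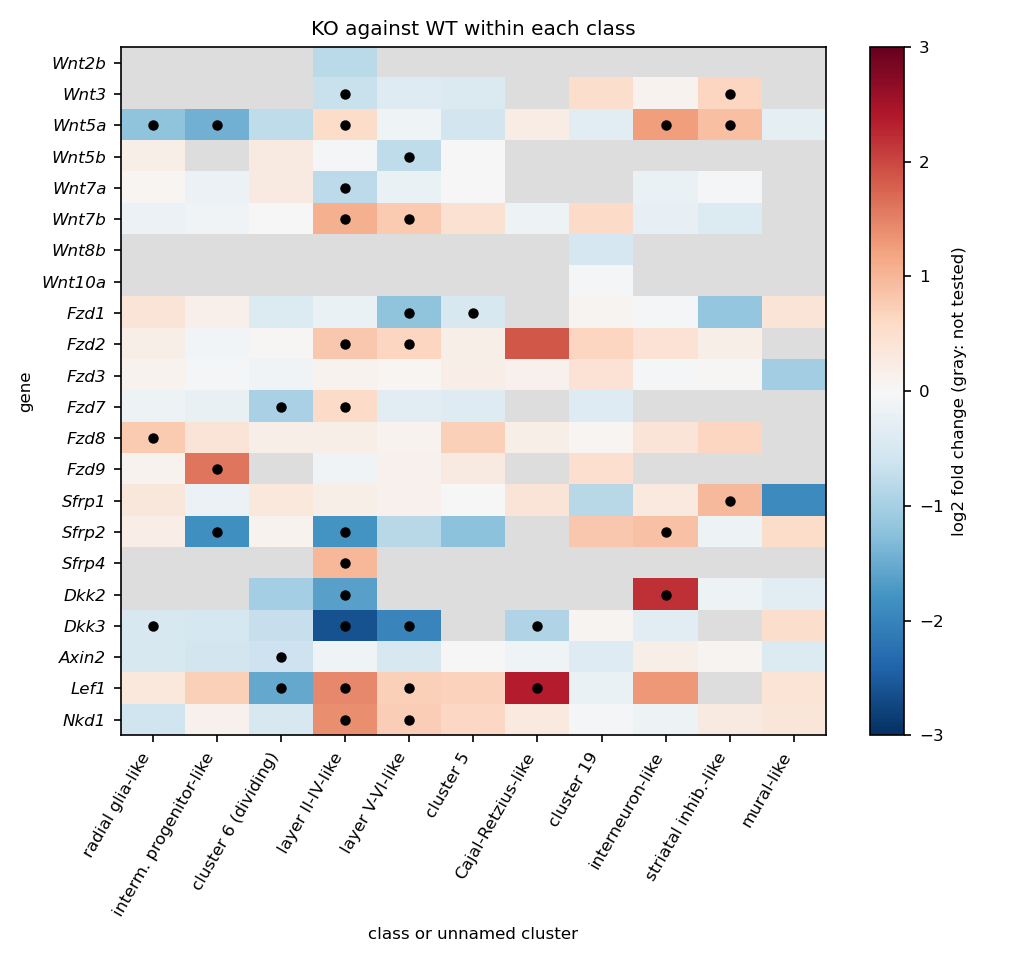
Log2 fold change in KO vs WT of the members named in the text within each class or unnamed cluster (colour, gray where not tested). Black dots mark called pairs. Wnt7b and Nkd1 are called higher in both excitatory layers, and Dkk3 is called lower there and in radial glia-like and Cajal-Retzius-like cells.

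Whether an effect differed between classes was tested directly, as an interaction of class and genotype with the embryo as a block, at an adjusted p under 0.05. The prefix was not fitted in these tests, so in KO vs WT it cannot be told apart from genotype in them. Of 70 tests in KO vs WT, 19 passed. Between radial glia-like and layer II-IV-like cells 9 passed, beside 12.7% of genes. The KO effect on Dkk3 was less negative in radial glia-like cells by 2.15 (SE 0.23, adjusted p = 6.0e-07) on the log2 scale, and that on Wnt7b differed by -1.20 (SE 0.13, adjusted p = 5.7e-07). Nkd1 differed by -1.92 (SE 0.30, adjusted p = 9.4e-05) and Lef1 by -1.12 (SE 0.32, adjusted p = 0.021) in the same contrast.

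Between layer V-VI-like and layer II-IV-like cells 5 passed, beside 13.9%, and between interneuron-like and layer II-IV-like cells 5 passed, beside 6.18%. Lef1 (-0.71) and Nkd1 (-0.64) rose less in layer V-VI-like than in layer II-IV-like cells, and the KO effect on Fzd1 differed by -0.99. For Lef1 this is the difference of the joined classes. Its mean rose by a larger factor in clusters 3 and 10 than in cluster 7, as given above, and the contrast was not tested by cluster. The 5 of interneuron-like cells include Wnt7b, which stood there near its level in erythroid-like cells. Its difference shows no KO effect of interneuron-like cells and is not read here. The KO effect on Sfrp2 was higher in interneuron-like cells by 2.66 (SE 0.32, adjusted p = 0.00013). In Het vs WT 2 of 70 passed, both between radial glia-like and layer II-IV-like cells, where 1.05% of genes did. They were Dkk3 (1.19, SE 0.20, adjusted p = 0.0034) and Fzd8 (0.69, SE 0.16, adjusted p = 0.028).

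Wnt8b and Wnt10a were read in a small group of cells. Unnamed cluster 19, with 739 cells and the leading genes Ttr, Tac2, Tesc, Prox1, Rmst and Lhx9, held 535 of 635 UMIs of Wnt8b (84.3%) and 275 of 370 UMIs of Wnt10a (74.3%). Its share of cells was 1.06%, 1.30% and 1.63% in WT, 1.42%, 1.41%, 0.980% and 1.07% in Het and 0.750%, 0.583% and 0.793% in KO embryos. KO lay below all other embryos. Within the cluster, Wnt8b was at 30.8, 27.2 and 24.6 plain CPM in WT, 54.3, 41.98, 29.7 and 46.4 in Het and 16.9, 28.0 and 15.8 in KO embryos, and the KO and WT embryos overlapped. KO lay below every Het embryo there, but the change was not called (KO vs Het -1.09, SE 0.28, adjusted p = 0.11).

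None of the 17 members tested in cluster 19 was called in KO vs WT by edgeR, beside 1.72% of genes, and 3 had an unadjusted p under 0.05. Wnt8b had a log2 fold change of -0.52 (SE 0.28, adjusted p = 0.36) there, against -1.24 over all cells, and Wnt10a -0.05 (SE 0.46, adjusted p = 0.98) against -1.14. Markers of the cortical hem, a known source of Wnt ligands, together gave 4.52 to 8.22 plain CPM over all cells of WT embryos, 3.39 to 4.21 of Het embryos and 2.23 to 3.04 of KO embryos, from 6 markers, of which Gdf7 was at 0 in WT replicate 1, Het replicate 4 and KO replicate 2. Markers of the choroid plexus, which lies beside the hem, gave 4.45 to 27.4 for WT embryos, 2.81 to 4.07 for Het embryos and 2.66 to 3.98 for KO embryos, with Folr1 at 10.4 in WT replicate 1 and 0.0241 to 0.861 in the other embryos. In the hem list, Gdf10 was at 2.35, 3.32 and 2.86 in WT and 1.03, 0.953 and 1.43 in KO embryos. Msx1 was at 3.08 in WT replicate 1 and at 0.422 and 0.279 in WT replicates 2 and 3. Lmx1a was at 0.258 to 0.627 in WT and 0.192 to 0.244 in KO embryos. Bmp7 was lower in every KO than in every WT embryo, while Bmp6 and Gdf7 overlapped. The part of both lists in the fall of Wnt8b was not tested.

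**Figure D5:**
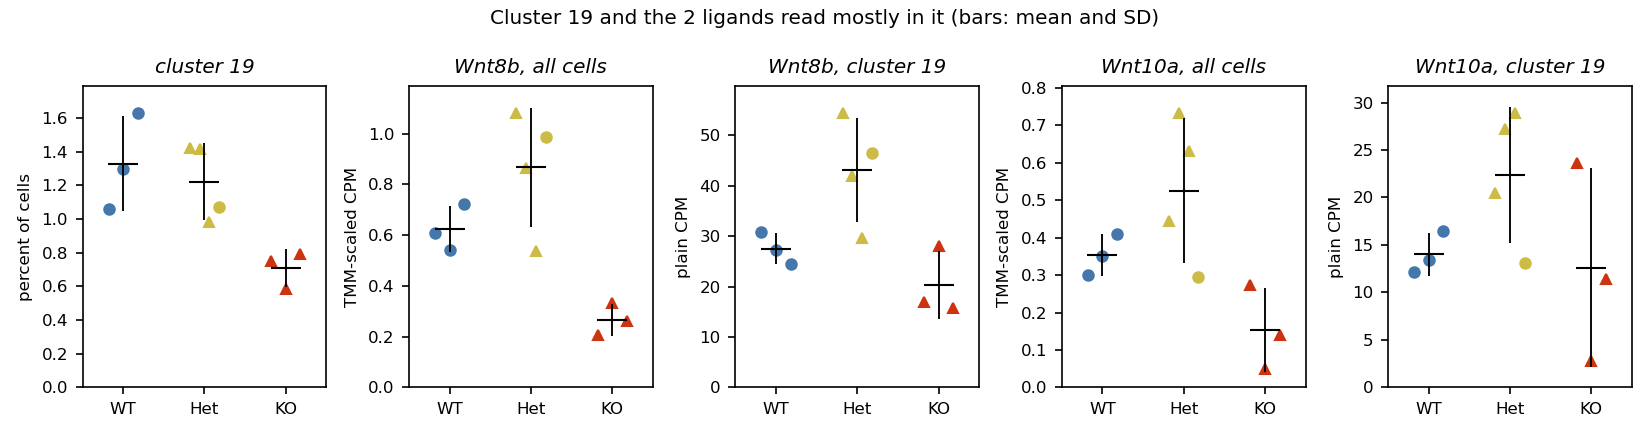
Cluster 19 as a percent of all cells of each embryo, and Wnt8b and Wnt10a over all cells (TMM-scaled CPM) and within cluster 19 (plain CPM), with group mean and SD. Circles are libraries of prefix A and triangles those of prefix B. The share of the cluster and Wnt8b over all cells are lower in KO than in every other embryo, and within the cluster the KO and WT embryos overlap.

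Beyond the members, 65 other genes of the pathway were listed, and 63 were tested over all cells. In KO vs WT 10 were called higher and 10 lower, beside 24.5% of all genes. In Het vs WT it was 1 and 1, beside 2.98%, a share near that of all genes, and in KO vs Het within prefix B 5 and 5, beside 6.14%. Of the 8 tested genes of the R-spondin arm, which strengthens Wnt signals at the receptor, Rspo2 fell from a mean of 4.98 CPM in WT to 1.41 in KO (-1.81, SE 0.14, adjusted p = 7.1e-06) and Rspo1 also fell (-1.26, SE 0.31, adjusted p = 0.0086), while Rspo3 rose from 61.8 to 110 CPM (0.83, SE 0.10, adjusted p = 0.00021). Of 5 usual target genes, Sp5 (-0.97), Myc (-0.69) and Ccnd1 fell and Dact1 (0.48) rose. Of 10 further extracellular antagonists, Kremen1, a Dickkopf co-receptor, rose (0.72), while Draxin (-0.39) and Sostdc1 (-2.36, SE 0.59) fell. Sostdc1 stood at 13.1, 2.43 and 2.24 CPM in WT and at 0.986, 0.885 and 1.59 in KO embryos, so WT replicate 1 carries most of its WT mean. The choroid plexus list above was also highest in that embryo, and its part was not tested.

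Other pathway genes called in KO vs WT included the planar polarity receptor Celsr1 (0.94), the repressor Tcf7l1 (0.80) and the proteoglycan Gpc4 (0.70), which were higher. Notum, a secreted enzyme that removes the lipid of Wnt proteins, was lower (-0.92), and so was Nkd2, the paralog of Nkd1 (-0.72). Notum was also lower in Het vs WT (-1.08, SE 0.19, adjusted p = 0.018) and Celsr1 higher (0.53, SE 0.11, adjusted p = 0.030). Of 13 cytoplasmic relay genes 3 were called, Ctnnb1 (0.33), which encodes beta-catenin, and the kinase gene Csnk1e (0.26) higher and Nkd2 lower. Ctnnb1 stood at 213, 224 and 220 CPM in WT and 227 in Het replicate 4, all of prefix A, and at 270, 255 and 254 in Het replicates 1 to 3 and 272, 283 and 273 in KO embryos, all of prefix B. In KO vs Het within prefix B neither it (0.087, adjusted p = 0.22) nor Csnk1e (0.088, adjusted p = 0.23) was called. In the same comparison, which shares its KO embryos with KO vs WT, the values were 0.21 for Notum (adjusted p = 0.66), 0.43 for Celsr1 (0.053), -0.21 for Draxin (0.052), -0.69 for Sostdc1 (0.081) and -0.065 for Ccnd1 (0.60), none of them called. The prefix was not fitted as a covariate for the pathway genes. Ctnnb1, Csnk1e, Draxin and Ccnd1 were named after their values were seen, to complete these counts.

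The promoters of the members were searched for the 7-letter sequences CTTTGAT and CTTTGTT, which TCF and LEF factors bind, on both strands of 250 bases before to 50 after each start in RefSeq (GRCm38.p6). Of the 40 members 28 were in the table, with 34 windows (not Dkk3, Dkk4, Fzd2, Fzd3, Fzd6, Fzd8, Sfrp1, Sfrp4, Wnt10a, Wnt5a, Wnt7b and Wnt8a), and 5 genes held either sequence, namely Dkk1, Fzd7, Wnt3, Wnt5b and Wnt11. Over all 32851 windows CTTTGAT was found in 3.73%, CTTTGTT in 5.85% and either in 9.33%. Among these genes Fzd7 was called higher in layer II-IV-like and lower in cluster 6 cells, and Wnt5b was called lower in layer V-VI-like cells. Wnt3, called lower in layer II-IV-like and higher in striatal inhibitory-like cells, has its match at base 19 after the start and is not shown. For Fzd7 and Wnt5b the 250 bases before the start are shown with the match in capitals, AACAAAG being CTTTGTT read on the other strand. A match is a description of the letters and not a bound site.
Fzd7, chr1:59481897-59482146, plus strand, match 130 bases before the start: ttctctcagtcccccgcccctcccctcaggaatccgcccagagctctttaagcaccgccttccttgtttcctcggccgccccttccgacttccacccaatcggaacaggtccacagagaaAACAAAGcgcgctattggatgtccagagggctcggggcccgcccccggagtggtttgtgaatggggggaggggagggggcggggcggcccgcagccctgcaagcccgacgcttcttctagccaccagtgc
Wnt5b, chr6:119449387-119449636, minus strand, 1 of its 3 windows, match 71 bases before the start: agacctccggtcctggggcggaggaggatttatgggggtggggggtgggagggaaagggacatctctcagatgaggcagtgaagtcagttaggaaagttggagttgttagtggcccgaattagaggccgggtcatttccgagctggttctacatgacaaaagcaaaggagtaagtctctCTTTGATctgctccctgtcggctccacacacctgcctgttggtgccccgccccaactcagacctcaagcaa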

How the data were processed

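Per embryo, 1 matrix of UMI counts was deposited, made by the authors from alignments to mm10. The submitters' processing notes name Cell Ranger 6.0.2, and the study's methods another version. The deposited counts are whole numbers per gene and barcode and were not normalized. As in the study's methods, barcodes under 1000 UMIs or above 10% mitochondrial UMIs were dropped. Doublets were kept. Clusters came from Seurat 5.3.0 (2000 variable genes, 30 components, RPCA integration of embryos, resolution 0.4) in R 4.3.3 and were named from marker genes.

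UMI counts were summed per embryo, over all cells or over a class (20 cells or more in each embryo), because cells of an embryo are not replicates. The sums were tested with edgeR 4.0.16 (filterByExpr, TMM, quasi-likelihood test, two-sided) with Benjamini-Hochberg adjustment over all genes of each fit. All 10 embryos shared 1 fit for Het vs WT and KO vs WT, and the 6 libraries of prefix B were fitted alone for KO vs Het. The SE was taken from the F statistic. DESeq2 1.42.0 was an alternative. On simulated KO vs WT counts with 100 genes changed at each size, the test over all cells recovered 47% of genes changed by a log2 of 0.5 and 77% of those changed by 1, among 17501 genes, with 5 false calls. In radial glia-like cells it recovered 24% and 76% among 11651 genes. The simulation changed 200 genes per fit, while 24.5% of genes were called in the real KO vs WT fit over all cells. Adjusted p-values depend on the share of changed genes, so recovery in the real fits was not measured.

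The members and gene lists were chosen with earlier results of these data known. Named with values were members called in any comparison over all cells or in a class and the 12 members with the highest WT mean over all cells, and of the other pathway genes at most 6 called ones per direction and comparison. The other members were given by level, counts or ranges. Replicate numbers were checked for pairing. Deviations of samples with the same number correlated at -0.185 to 0.125 over 17647 genes, so the numbers were not treated as pairs. Gene positions are those of GENCODE vM21 (GRCm38).

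Alternatives were another test, other size factors, no filter on low counts, at least 3000 UMIs, at most 5% mitochondrial UMIs, removal of the cells with the highest Scrublet scores (in scanpy 1.11.5, 0.8% per 1000 barcodes), a replicate block, the prefix as a covariate, only the 2 groups compared, equal weight for each class, other clusterings and leaving out each embryo. Not all alternatives were run on each result, and the prefix was not a covariate in the fits of differences between classes. The KO vs Het fits per class, the alternatives for differences between classes, the endothelial-like levels without integration and the levels per cluster were added after seeing the data.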

Additional observations from a re-analysis of the deposited data

Results flagged for a closer look

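The effect of genotype on 21 pairs of member and class contrast differed between classes by the interaction test, with values as the difference of 2 log2 fold changes. The cause of these differences was not tested.

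For radial glia-like minus layer II-IV-like cells in KO vs WT, the differences were 2.15 for Dkk3, 1.97 for Sfrp2, 0.88 for Wnt7a and 0.64 for Fzd8. They were -1.92 for Nkd1, -1.70 for Wnt5a, -1.20 for Wnt7b, -1.12 for Lef1 and -0.62 for Fzd2. The same contrast in Het vs WT gave 1.19 for Dkk3 and 0.69 for Fzd8.

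For layer V-VI-like minus layer II-IV-like cells in KO vs WT, the differences were -0.99 for Fzd1, -0.87 for Fzd7, -0.71 for Lef1, -0.66 for Wnt5a and -0.64 for Nkd1. The Lef1 change differed between layer V-VI-like clusters 3, 7 and 10, as given above. In layer II-IV-like clusters 0, 1 and 13 the Fzd7 change differed in direction, and WT and KO embryos overlapped for Wnt5a. For interneuron-like minus layer II-IV-like cells the differences were 3.80 for Dkk2, 2.66 for Sfrp2, 2.29 for Dkk3, -1.28 for Wnt7b and -1.54 for Nkd1. Wnt7b in interneuron-like cells was near its level in erythroid-like cells, so its value shows no KO effect of interneuron-like cells.

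Wnt5a over all cells of Het replicate 2 stood at 16.4 CPM, apart from the other Het embryos at 14.5 to 14.6. It was 1 of 32 groups of 4 embryos looked at, and chance alone sets a sample apart in about 1 in 20 groups.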

How the results depend on the processing

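Het vs WT over all cells depended on nearly every choice. Its 2 members called became 1, Dkk3, without doublets or with at least 3000 UMIs, 1 with the prefix as a covariate, where it was Fzd2 and both earlier calls were lost, 3 (Dkk3, Fzd2 and Lef1) with at most 5% mitochondrial UMIs, 0 by edgeR with only the 2 groups in the fit, and 0 to 4 when an embryo was left out, with 4 only without Het replicate 4 and 1 without KO replicate 2. By DESeq2 the number was 3, namely Dkk3, Fzd8 and Wnt7b. The cause of these changes was not tested. In KO vs WT the 12 members became 6 with the prefix as a covariate and 9 to 15 in the other alternatives, and in KO vs Het the 9 became 6 to 9. With the replicate block, Het vs WT gave 6 members over all cells and 11 pairs of member and class, KO vs WT 13 and 38, and KO vs Het 9. The numbers pair nothing that the labels name.

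The 6 pairs of Het vs WT became 14 with no filter on low counts and 3 to 11 when an embryo was left out, 3 without Het replicate 1 or WT replicate 3 and 11 without Het replicate 4. The 33 pairs of KO vs WT ranged from 22 to 44. The 2 differences of the Het effect between classes became 1 without doublets, 7 with no filter and 1 to 3 when an embryo was left out. It was 1 without Het replicate 1 or any single WT embryo. The 19 differences of the KO effect ranged from 15 to 24. These ranges do not cover the prefix, which was not fitted as a covariate for differences between classes. Fzd1 in KO vs Het turned from -0.37 to 0.017 when each class had equal weight. In KO vs WT, members that were not called changed sign: Axin2 (0.13) and Sfrp2 (0.16) with the prefix as a covariate, Fzd7 (-0.10) with at most 5% mitochondrial UMIs, Fzd3 (-0.064), Fzd7 (-0.14) and Wnt3 (0.22) with equal weight for each class, and Fzd7 (-0.058 to 0.098) and Wnt5b (-0.20 to 0.00067) when an embryo was left out. Of the other values of named members, 65 lost the call and 9 gained one.

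Sparse members are limited by depth. Wnt2b, Wnt8b, Wnt10a and Sfrp4 had 4 to 123 UMIs per embryo.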
